A study of Mus musculus with 9 samples.

Results

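The sodium-potassium ATPase keeps sodium low and potassium high inside cells, and in the retina it supplies the gradients that photoreceptors spend on the dark current, that glia use to clear transmitter and that the retinal pigment epithelium (RPE) uses to move ions and water. The pump joins a catalytic alpha subunit to a beta subunit, a glycoprotein that the enzyme needs to fold and reach the membrane, and often to a small FXYD protein that tunes its affinity for ions. Here the genes of 3 beta subunits (Atp1b1, Atp1b2 and Atp1b3) and of 2 FXYD proteins (Fxyd6 and Fxyd7) are described, 5 of the 37725 genes measured, in the cell types of the mouse retina and RPE. The members were chosen by name after their UMI levels and beta shares in these cell types were known, and the cell types were set by the UMIs (unique molecular identifiers, 1 per captured RNA molecule) of marker genes that include no member. Levels and shares across cell types are therefore a description without a test.

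Cells came from 4 control and 5 dKO mice, and the retinas of both eyes of a mouse were pooled into 1 sample (S01 to S04, control; S05 to S09, dKO). Per the labels, every mouse carried floxed miR-204 and miR-211 together with RPE65-ERT2-Cre, a tamoxifen-inducible recombinase driven by an RPE promoter, so the gene deletion in dKO mice was directed to the RPE. The dKO mice received 75 mg/kg of tamoxifen for 5 days from postnatal day 28, and controls received corn oil alone. Tissue was taken 6 months after this induction. For its imaging and electrophysiology the study describes controls of another kind, tamoxifen-treated mice without Cre, and the labels of these samples are followed here. By those labels tamoxifen and the deletion cannot be told apart, because the dKO mice alone received tamoxifen.

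Of 31089 cells, 26391 (84.9%) were assigned to 1 of 16 cell types by at least 3 detected marker genes, and 15 types held at least 10 cells in at least 3 mice. Of 48 comparisons of markers that the assignment did not use, 31 were highest in their own cell type and 39 were among the top 2. Vim was highest in fibroblast-like cells, with Müller glia at rank 7, and Otx2 in RPE rather than in cone bipolar cells. Of the markers so checked for glycinergic amacrine cells (Pax6, Elavl3 and Slc32a1) and for starburst amacrine cells (Megf10, Isl1 and Sox2), none was highest in its own type. Total depth ranged from 15079143 to 66528160 UMIs per mouse, and levels are given as CPM, the UMIs of a gene per 1000000 UMIs of a mouse in that cell type. No cell barcode was shared between mice. S04, S05 and S07 stood apart: their median depth was 4775 to 5412.5 UMIs per cell against 8118 to 10340 in the other 6 mice, rods made up 66.4% to 82.7% of their cells against 30.5% to 42.1%, and 3 rod marker genes that the typing did not use, summed, reached 728 to 1468 CPM in their glycinergic amacrine cells, which should lack them, against 101 to 200.1 CPM in those of the other mice. Labels give S06 and S07 the same animal number, so these samples may not be independent.

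Atp1b1 was highest in ganglion, horizontal, amacrine and RPE cells. Its gene lies on the minus strand of chromosome 1 (GRCm39, chr1:164264678-164285957). It overlaps Gm32391 and also Nme7, whose reads could be confused with its own where strand is not kept. In retinal ganglion cells, the output neurons of the retina, the mean was 948 ± 82.6 CPM (SD, n = 8). The ganglion values were 877, 927 and 876 CPM in control S01, S02 and S03 and 1004, 927, 1100, 866 and 1009 CPM in dKO S05 to S09. No mouse fell below 866 CPM, and the ranges of control and dKO overlapped.

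Horizontal cells, the interneurons that carry lateral signals between photoreceptors, were next with 912 ± 88.1 CPM (n = 7), a range that overlapped that of ganglion cells. RPE cells followed with 571 ± 110 CPM (n = 7), below every horizontal value. Starburst amacrine cells, the cholinergic interneurons of the inner retina, had 453 ± 65.4 CPM (n = 7), GABAergic amacrine cells 448 ± 75.6 CPM (n = 9) and glycinergic amacrine cells 308 ± 51.4 CPM (n = 9), and each overlapped its neighbour in the order. Pericytes, the contractile cells around capillaries, spread widely, from 51.5 to 251 CPM, on 110 UMIs in all.

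In the other 8 cell types the mean of Atp1b1 was 15.6 CPM or less. Rods had 10.9 ± 3.24 CPM, cones 6.55 ± 2.25, rod bipolar cells 8.39 ± 4.28, cone bipolar cells 5.73 ± 2.49 and Müller glia 6.68 ± 1.56 (each n = 9), and the ranges of these 5 types overlapped those of their neighbours. At least 1 UMI was found in 7.23% of 2032 cones (95% Wilson interval 6.19% to 8.44%) at a median of 12215.5 UMIs per cell, against 97.3% of 2024 GABAergic amacrine cells (96.5% to 97.9%) at 25837.5. Intervals of this kind cover counting error only.

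The ganglion level depended on which cells were kept. Ganglion cells had the highest median depth of the 16 types, 46597 UMIs per cell. Leaving out the 5% of cells with the most UMIs in each mouse kept 186 of 570 ganglion cells. In those 186 cells Atp1b1 averaged 425 ± 115 CPM (n = 7) instead of 948, no longer above GABAergic amacrine cells, and its share of beta subunit UMIs was 81.3% instead of 89.5%.

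**Figure D1:**
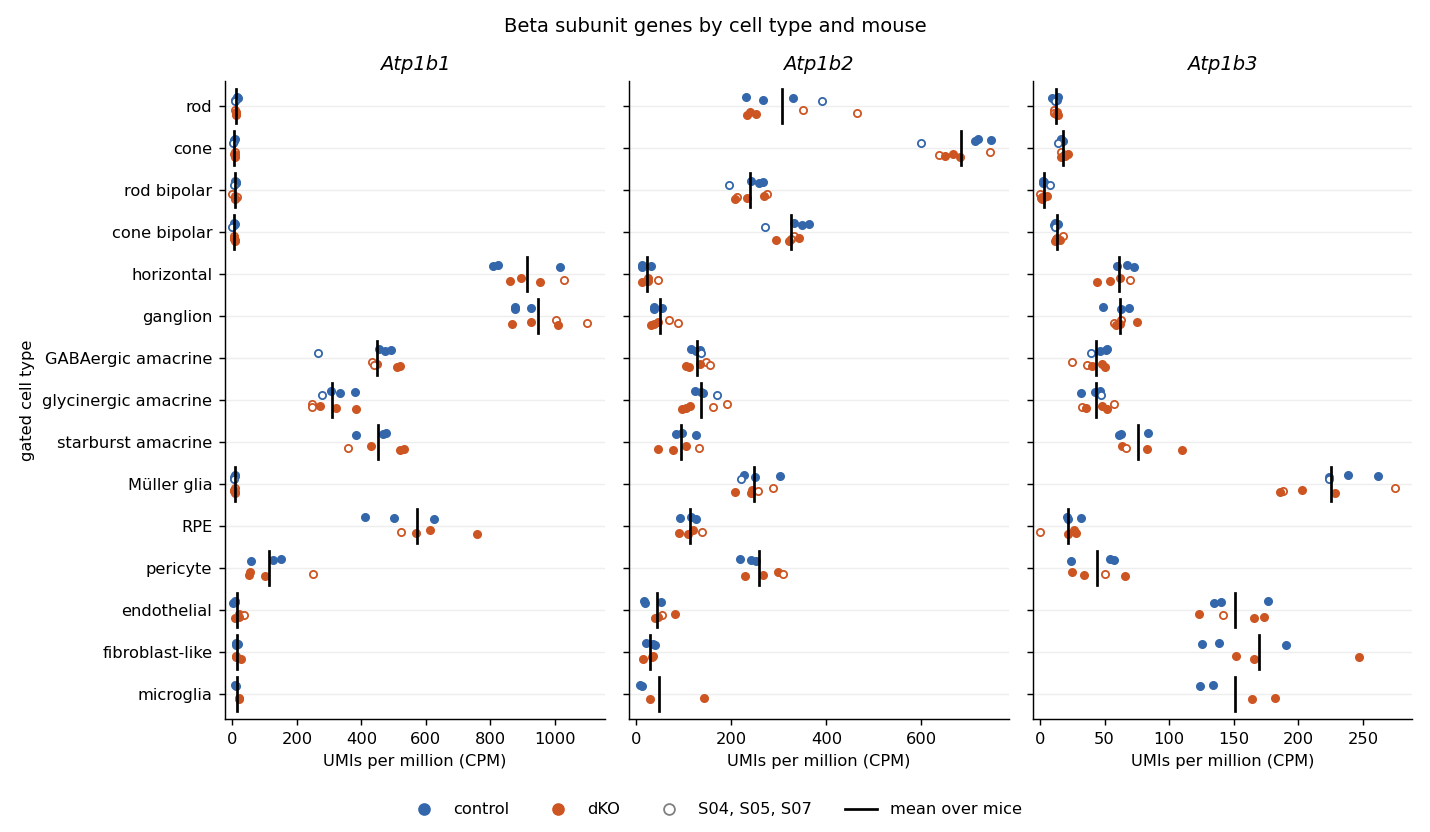
Levels of Atp1b1, Atp1b2 and Atp1b3 (x axes, UMIs per 1000000) in 15 gated cell types (y axis), with 1 point per mouse with at least 10 cells of that type, open points for S04, S05 and S07, and a black line at the mean over mice. Atp1b1 is highest in ganglion (948 CPM) and horizontal cells (912 CPM), Atp1b2 in cones (684 CPM) and Atp1b3 in Müller glia (225 CPM), and control and dKO points overlap in the 9 types compared.

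Atp1b2 was highest in photoreceptors, bipolar cells, pericytes and Müller glia. The protein was first known as an adhesion molecule on glia. Its gene lies on the minus strand of chromosome 11 (chr11:69487651-69496851) and overlaps no annotated gene. Cones were highest, with 719, 747, 712 and 600 CPM in control S01 to S04 and 744, 666, 636, 649 and 681 CPM in dKO S05 to S09 (mean 684 ± 50.6 CPM, n = 9). The lowest cone value, 600 CPM in S04, was above the highest value of any other cell type. Cones with more M-opsin than or as much M-opsin as S-opsin had 668 ± 66.6 CPM and cones with more S-opsin 699 ± 43.2 CPM, which overlapped.

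Cone bipolar cells (326 ± 28.1 CPM), rods (307 ± 82.9), pericytes (259 ± 34.2, n = 7), Müller glia (249 ± 30.5) and rod bipolar cells (240 ± 29.6) formed a tier below them whose neighbours overlapped in range (n = 9 unless given). ON and OFF cone bipolar cells, which respond to light increments and decrements, had 346 ± 27.7 and 329 ± 29.6 CPM (n = 8 each) and overlapped. A lower tier with no overlap with the one above it held glycinergic (137 ± 31.6 CPM) and GABAergic (129 ± 17.0 CPM) amacrine cells, RPE (113 ± 17.6 CPM) and starburst cells (94.8 ± 29.2 CPM). Ganglion cells had 50.3 ± 19.7 CPM and horizontal cells, the lowest, 23.3 ± 12.5 CPM.

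Among cell types, rods had the largest SD of Atp1b2 in CPM, though not relative to the mean. Atp1b2 in rods was 231, 331, 266 and 391 CPM in control S01 to S04 and 352, 240, 465, 253 and 233 CPM in dKO S05 to S09. The 3 highest values were those of S04, S05 and S07, the mice with shallow cells and many rods, and without them the mean was 259 ± 37.6 CPM (n = 6). The same mice were highest for Atp1b2 in glycinergic amacrine cells, with 170, 191 and 162 CPM against 96.9 to 140 CPM in the others, and S05 and S07 in ganglion cells, with 70.0 and 88.3 CPM against 31.7 to 53.7 CPM. In GABAergic amacrine cells S04, S05 and S07 were highest by a small margin, with 135.8 to 154 CPM against 104 to 134.4 CPM. In cones they were not, with 600, 744 and 636 CPM against 649 to 747 CPM.

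The 3 rod marker genes moved with those values. Beside the 728 to 1468 CPM in glycinergic amacrine cells given above, their sum stood at 654 and 777 CPM in ganglion cells of S05 and S07 against 102 to 124 CPM in those of the other mice. In GABAergic amacrine cells it was 738 to 828 CPM in S04, S05 and S07 and 99.7 to 193 CPM in the other mice. In rods it was 5964 to 7039 CPM in S04, S05 and S07 and 4724 to 5548 CPM in the other mice. The sum was as clearly raised in Müller glia of S04, S05 and S07 (895 to 1110 CPM against 157 to 282 CPM), where their Atp1b2 lay within the range of the other mice (221 to 288 CPM against 208 to 302 CPM), and in both kinds of bipolar cell (533 to 1271 CPM against 128 to 399 CPM), where Atp1b2 overlapped between the mice. The part of free rod RNA in the Atp1b2 values was not tested.

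**Figure D2:**
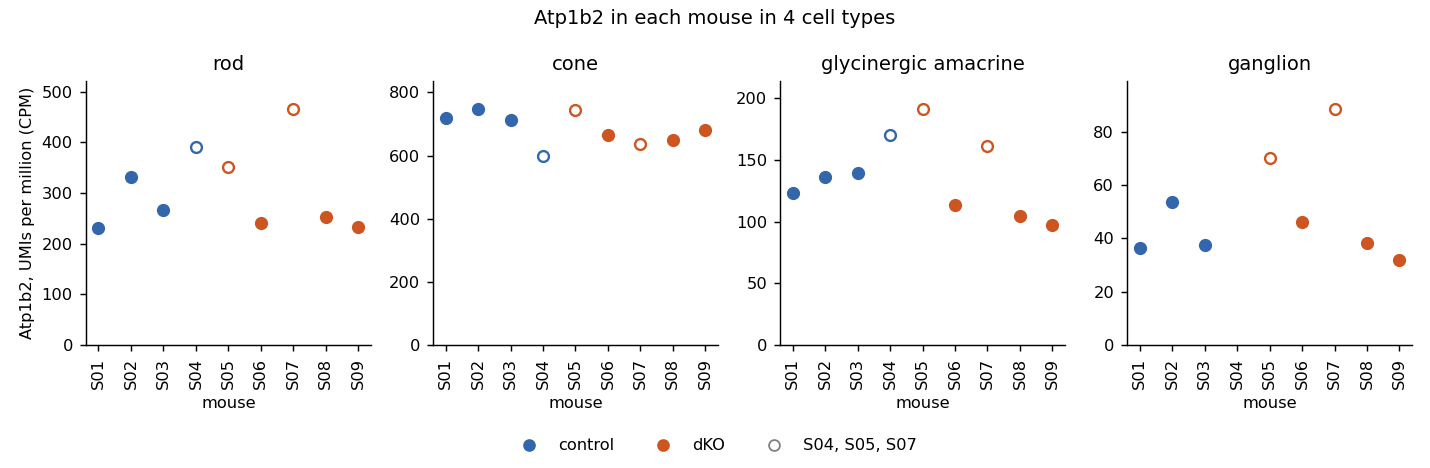
Atp1b2 (y axes, UMIs per 1000000) in each mouse (x axes) in rods, cones, glycinergic amacrine cells and ganglion cells, with filled points for 6 mice and open points for S04, S05 and S07. The open points are the highest in rods (352 to 465 CPM), glycinergic amacrine cells (162 to 191 CPM) and ganglion cells (70.0 and 88.3 CPM, with S04 below 10 cells) but not in cones (600 to 744 CPM).

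Atp1b3 was highest in Müller glia and in fibroblast-like, microglial and endothelial cells. It lies on the minus strand of chromosome 9 (chr9:96214674-96246814) and overlaps the annotated gene Gm68867. Müller glia, which span the retina and take up potassium and glutamate, had 239, 262, 224 and 223 CPM in control S01 to S04 and 275, 203, 188, 186 and 228 CPM in dKO S05 to S09 (mean 225 ± 30.3 CPM, n = 9). Fibroblast-like cells (169.9 ± 44 CPM, n = 6), microglia (151 ± 26.6, n = 4) and endothelial cells (151 ± 20.8, n = 7) came next, and each overlapped its neighbour.

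The level then dropped with no overlap to starburst (75.7 ± 18.0 CPM), ganglion (62.1 ± 7.75) and horizontal cells (61.6 ± 9.89), followed by pericytes (44.5 ± 16.7) and glycinergic (43.7 ± 8.87) and GABAergic amacrine cells (43.2 ± 8.93). RPE (21.5 ± 10.2), cones (17.5 ± 2.27), cone bipolar cells (13.2 ± 2.37) and rods (12.1 ± 1.71) had little. Rod bipolar cells were lowest with 2.77 ± 2.46 CPM on 49 UMIs in 9 mice, and the rod range lay above theirs.

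The shares of the 3 genes among beta subunit UMIs sorted the cell types. Atp1b2 held 96.6% ± 0.46 of beta UMIs in cones, 95.5% ± 1.91 in rod bipolar cells, 94.5% ± 1.02 in cone bipolar cells and 92.5% ± 2.46 in rods (SD, n = 9 each). Atp1b1 held 91.5% ± 1.55 in horizontal (n = 7) and 89.5% ± 1.37 in ganglion cells (n = 8), 80.6% ± 3.19 in RPE (n = 7), 72.4% ± 5.29 in starburst (n = 7), 71.8% ± 5.10 in GABAergic and 62.8% ± 7.32 in glycinergic amacrine cells (n = 9 each). Atp1b3 led in fibroblast-like (78.5% ± 4.96, n = 6) and endothelial cells (72.8% ± 12.4, n = 7).

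The cells of the vertical pathway from photoreceptor to bipolar cell thus carried mostly Atp1b2 RNA, and horizontal, amacrine and ganglion cells mostly Atp1b1 RNA. In each of the 9 mice Atp1b2 had at least 89.1% in rods and at most 38.5% in glycinergic amacrine cells. Shares were lower for Atp1b1 in glycinergic amacrine cells of S04, S05 and S07 (56%, 50% and 56.2%) than in the 6 other mice (62.8% to 72.0%). Pericytes mixed Atp1b2 (63.8% ± 12.3) with Atp1b1 (25.5% ± 10.5), on 10 to 26 cells a mouse, and Atp1b1 held 13.8% there under a stricter typing that asked for 1 more marker. A share in microglia could be formed in 2 mice, with at least 20 beta UMIs each, in which Atp1b3 held 52.5% and 77.3%.

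**Figure D3:**
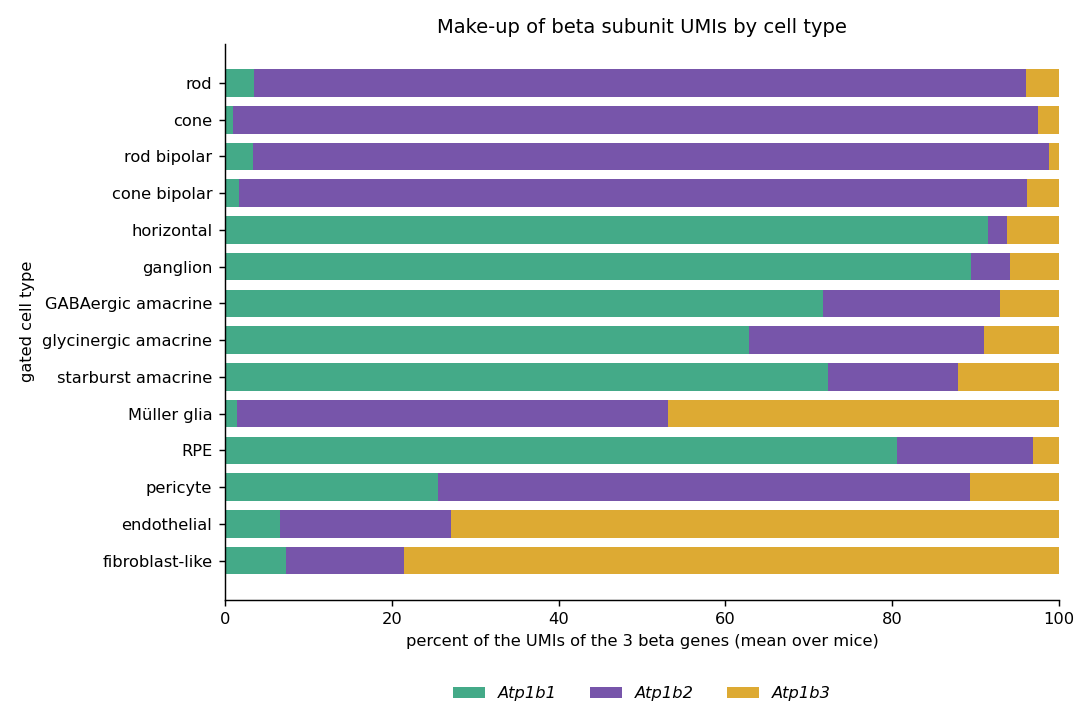
Mean percent of beta subunit UMIs (x axis) on Atp1b1, Atp1b2 and Atp1b3 (stacked colours) in 14 gated cell types (y axis), each mouse weighted equally. Atp1b2 fills 92.5% to 96.6% of the bar in photoreceptors and bipolar cells, Atp1b1 62.8% to 91.5% in horizontal, ganglion and amacrine cells and 80.6% in RPE, and Müller glia are split between Atp1b2 (51.8%) and Atp1b3 (46.8%).

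Müller glia were the type with a near-even mix. Of their beta UMIs 51.8% ± 2.67 were on Atp1b2 and 46.8% ± 2.65 on Atp1b3 (n = 9), and Atp1b1 held 1.4% ± 0.33. Atp1b2 was ahead in 7 of the 9 mice and Atp1b3 in S01 (50.6% against 47.8%) and, by a single UMI, in S04 (49.7% against 49.2%). Which gene led depended on how length was taken into account. Per kilobase of the canonical transcript (3001 bases for Atp1b2 and 2014 for Atp1b3) Atp1b3 held 56.6% and Atp1b2 42.0%, whereas per kilobase of the gene span (9201 and 32141 bases), a scale for reads from introns, Atp1b2 held 78.6% and Atp1b3 20.4%. On either scale Atp1b2 kept a mean of at least 90.3% in rods, cones and both kinds of bipolar cell, and Atp1b1 the largest part in ganglion, horizontal, starburst, GABAergic amacrine and RPE cells. In glycinergic amacrine cells Atp1b1 led per kilobase of transcript (63.7%) and Atp1b2 by a small margin per kilobase of span (48.2% against 47.3%).

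Fxyd6 and Fxyd7 were scarcer and more restricted. Fxyd6 encodes phosphohippolin, which binds the pump in brain and inner ear, and lies on the plus strand of chromosome 9 (chr9:45281302-45307457), where it overlaps Gm67863. Müller glia had 56.4, 104, 100 and 49.4 CPM in control S01 to S04 and 115, 107, 48.1, 56.3 and 88.6 CPM in dKO S05 to S09 (80.6 ± 27.6 CPM, n = 9), values that fell into a lower and a higher cluster holding mice of both groups. Fibroblast-like cells had 74.5 ± 51.2 CPM (n = 6) and ranged from 26.2 to 160 CPM. GABAergic amacrine cells followed with 9.13 ± 1.84 CPM and no overlap with either, and the other 12 types had 3.97 CPM or less. A UMI of Fxyd6 was found in 55.5% of Müller glia (95% Wilson interval 53.4% to 57.6%), in 0.589% of rods (0.477% to 0.725%) and in 0 of 102 microglia, which allows a share of cells with a UMI of up to 2.94% (3 cells of the total). The 42 astrocytes, too few per mouse to compare, had 155 CPM over all mice (exact Poisson interval 132 to 180 CPM). That interval covers counting error only and not the spread between mice. Of the 170 UMIs 76 came from the 11 astrocytes of S02, which had 377 CPM.

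Fxyd7 encodes a neuronal FXYD protein of brain and lies on the minus strand of chromosome 7 (chr7:30741936-30750961). Ganglion cells had 22.5, 18.9 and 20.1 CPM in control S01 to S03 and 34.0, 19.99, 18.1, 24.0 and 19.0 CPM in dKO S05 to S09 (22.1 ± 5.19 CPM, n = 8), and S05 was highest. Müller glia were next with 14.7 ± 5.02 CPM (n = 9), a range of 9.01 to 21.3 CPM that overlapped that of ganglion cells. No other type exceeded 4.06 CPM in mean. A UMI was present in 53.3% of ganglion cells (49.2% to 57.4%) at a median of 46597 UMIs per cell and in 17.8% of Müller glia (16.2% to 19.4%) at 14929, against 2.77% of GABAergic amacrine cells (2.14% to 3.58%) at 25837.5 and 0 of 139 starburst cells, which allows a share of cells with a UMI of up to 2.16% (3 cells of the total). The ganglion level stayed at 25.3 ± 11.7 CPM (n = 7) in the 186 cells left without the deepest cells, unlike that of Atp1b1.

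**Figure D4:**
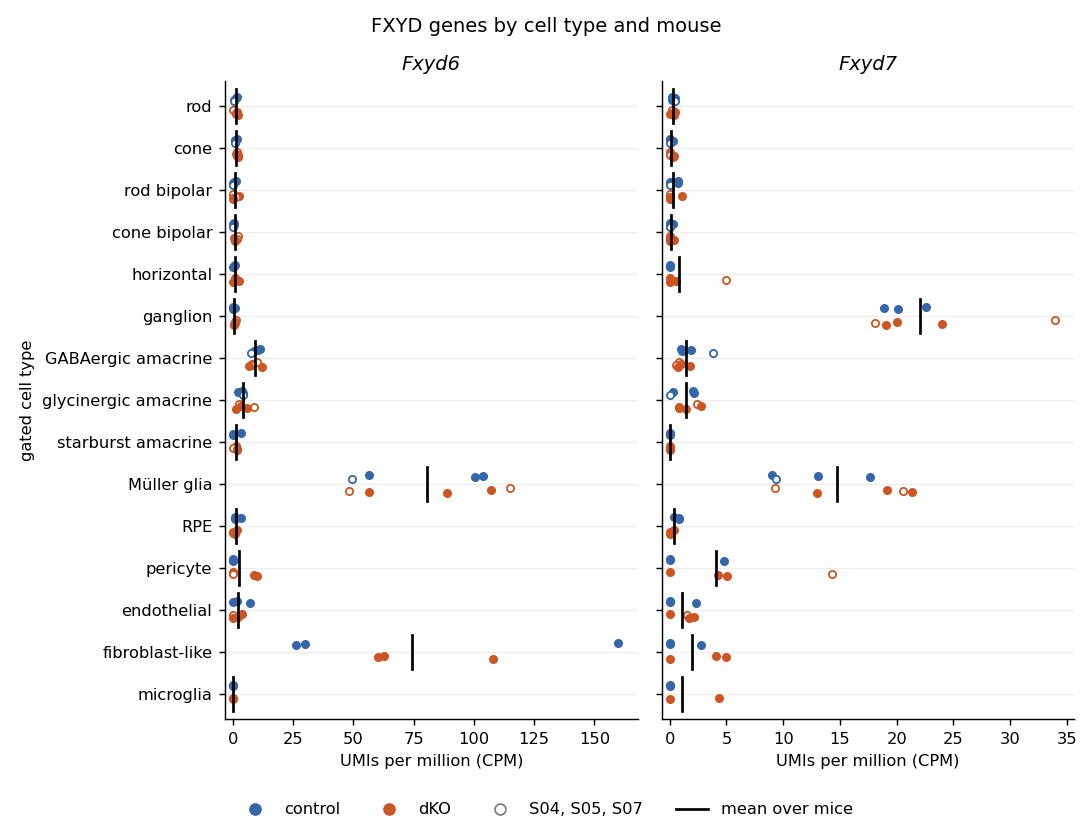
Levels of Fxyd6 and Fxyd7 (x axes, UMIs per 1000000) in 15 gated cell types (y axis), with 1 point per mouse with at least 10 cells of that type, open points for S04, S05 and S07, and a black line at the mean over mice. Fxyd6 stands out in Müller glia (80.6 CPM) and fibroblast-like cells (74.5 CPM), and Fxyd7 in ganglion cells (22.1 CPM) and Müller glia (14.7 CPM).

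Genes with the most similar profiles were found by Pearson correlation of log2(CPM + 1) over the 15 cell types among 8078 genes, as a description over points that share libraries. They were Hmgcs1, an enzyme of cholesterol synthesis (0.90), Sacm1l, a phosphoinositide phosphatase (0.89), and Gnai1, a G protein subunit (0.89), for Atp1b1. For Atp1b2 they were the transcription factors Tfcp2 (0.90) and Rfx3 (0.90) and Clpx, a mitochondrial chaperone (0.87). Atp1b3 was closest to Tmx3 (0.89), Bcorl1 (0.87) and Brd1 (0.86), Fxyd6 to Abi3bp (0.96), Efhd1 (0.93) and Pdgfrl (0.93), and Fxyd7 to Creg2 (0.86), Sema5a (0.84) and Chl1 (0.82). Among the members, Atp1b2 ran opposite to Atp1b3 (−0.60) and Atp1b1 (−0.45), and Fxyd6 and Fxyd7 went with Atp1b3 (0.50 each).

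Whether these genes changed in dKO mice was asked in 9 cell types, with mice as replicates. The share of genes past an adjusted p of 0.05 (edgeR quasi-likelihood test, Benjamini-Hochberg over all genes tested in a type) was 0% in rods, cones, rod bipolar cells, cone bipolar cells, GABAergic amacrine cells, glycinergic amacrine cells, ganglion cells and Müller glia and 0.0103% in RPE, 1 of 9728 genes. Between 162 and 467 genes a type had an unadjusted p under 0.05, and DESeq2 called 1 gene in rods, 4 in ganglion cells, 2 in RPE and 0 in the other 6 types. The called gene in RPE was Cdh8, a neuronal cadherin, higher in dKO by 2.40 ± 0.30 on the log2 scale (SE, adjusted p = 0.00765), named after its value was seen. With each mouse left out the RPE count ran from 0 (without S03) to 31 (without S02), and it was 0 under the stricter typing.

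No member passed in any of the 9 types. Of 45 pairs of gene and cell type 31 had enough UMIs to be tested: Atp1b1 and Atp1b2 in 9 types, Atp1b3 in 8 (not rod bipolar cells), Fxyd6 in rods, GABAergic amacrine cells and Müller glia, and Fxyd7 in ganglion cells and Müller glia. Log2 fold changes ran from −0.23 to 0.52 with a median of 0.038, beside medians over all genes of −0.010 to 0.011 in the 9 types. In the 31 pairs 0 had an unadjusted p under 0.05, beside 2.47% of all gene and cell type pairs, so a count of 0 sets the members little apart. Control and dKO ranges overlapped in each pair, and how often they overlap over all genes was not counted. The 95% intervals lay within a 1.5-fold change either way in 17 pairs and within 2-fold in 30. The exception was Fxyd6 in rods, on 100 UMIs (0.52, interval −0.59 to 1.63).

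In RPE, the cells that the recombinase targets, Atp1b1 was 410, 502 and 626 CPM in control S01 to S03 and 612, 523, 568 and 759 CPM in dKO S06 to S09. dKO values reached higher but overlapped with control (0.27 ± 0.23 on the log2 scale, SE, edgeR adjusted p = 0.9999). The estimate was 0.11 without S09 and 0.70 without the 5% of cells with the most UMIs, which left 244 of 330 RPE cells, and adjusted p values over the alternatives were 0.808 or more. Atp1b2 was 115, 91.8 and 127 CPM in control and 120, 138, 89.8 and 108 CPM in dKO RPE (−0.061 ± 0.19). Atp1b3 was 21.2, 31.4 and 21.9 CPM in control and 26.6, 0, 28.1 and 21.4 CPM in dKO RPE (0.063 ± 0.28), the 0 coming from the 11 cells of S07.

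Among neurons, Atp1b2 in cones averaged 695 ± 64.7 CPM in control and 675 ± 42.0 CPM in dKO mice (−0.060 ± 0.079, interval −0.23 to 0.11). In ganglion cells Atp1b1 averaged 893 ± 29.4 CPM in 3 control and 981 ± 88.8 CPM in 5 dKO mice (0.13 ± 0.090, interval −0.072 to 0.32). In rods Atp1b2 averaged 305 ± 71.1 and 309 ± 99.8 CPM (−0.012 ± 0.22), and −0.20 without S04, S05 and S07.

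In Müller glia Atp1b2 averaged 249.9 ± 37.1 and 248 ± 28.7 CPM (−0.050 ± 0.12), Atp1b3 237 ± 17.9 and 216 ± 36.9 CPM (−0.17 ± 0.12) and Fxyd6 77.5 ± 28.6 and 83.0 ± 29.9 CPM (0.0020 ± 0.29). The lowest p of the 31 pairs was that of Fxyd7 there, 12.3 ± 4.02 CPM in control and 16.6 ± 5.26 CPM in dKO mice (0.42 ± 0.26, edgeR adjusted p = 0.9998, 0.839 or more under every alternative), and its log2 fold change was 0.23 without S01 and 0.67 without S03. Atp1b2 in ganglion cells was 0.33 ± 0.29 and turned to −0.15 without S05 and S07, whose rod marker sums are given above. Values for the remaining pairs are drawn in the plot of log2 fold changes.

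**Figure D5:**
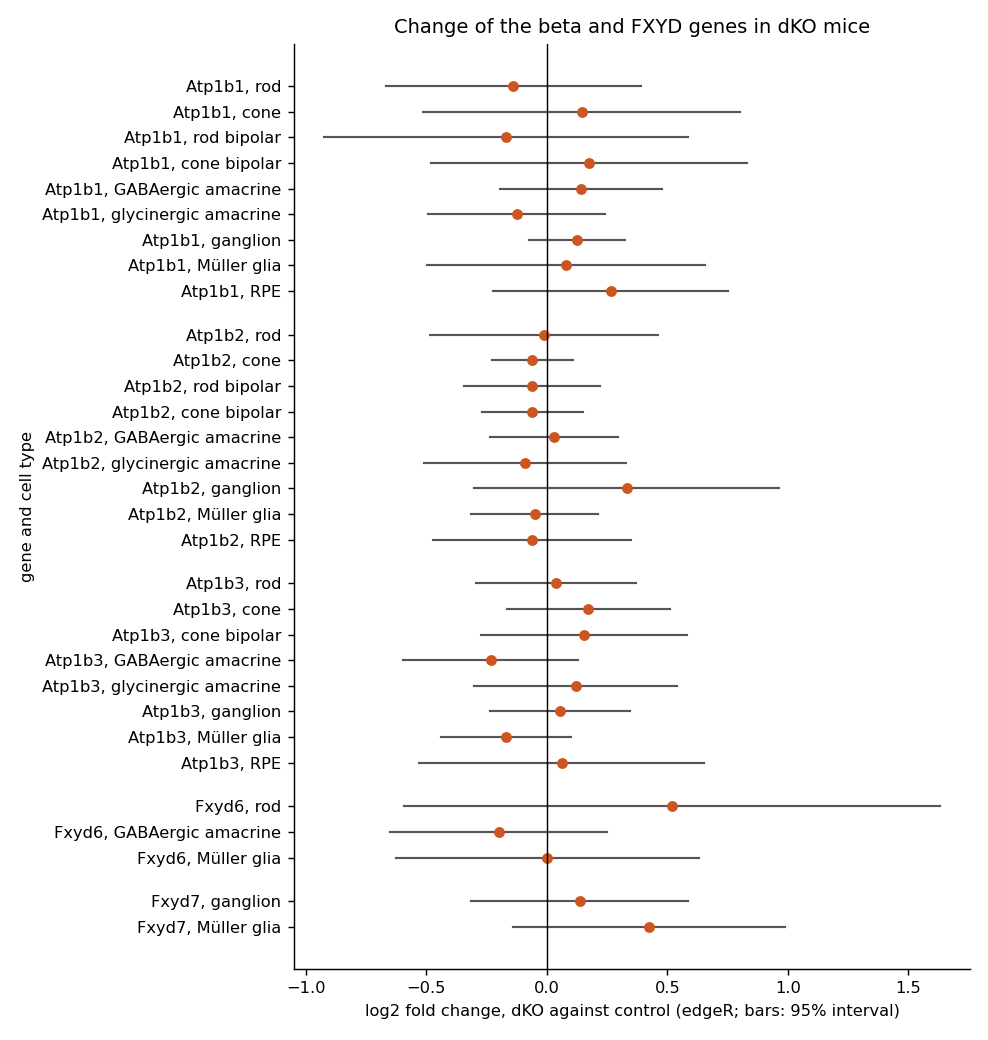
Log2 fold change of dKO against control (x axis) for the 31 tested pairs of gene and cell type (y axis), with points at the edgeR estimate and bars for the 95% interval. Every bar crosses 0, and the estimates lie between −0.23 (Atp1b3 in GABAergic amacrine cells) and 0.52 (Fxyd6 in rods).

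The make-up of the beta pool was compared as well, with 27 exact permutation tests, two-sided, of which 0 passed 0.05 before or after adjustment. With 4 against 5 mice the smallest p such a test can give is 0.00794, with 3 against 5 in ganglion cells 0.0179 and with 3 against 4 in RPE 0.0286. Adjusted over 27 tests, a single test at its smallest p would not pass 0.05. The adjusted values therefore cannot show that a share stayed the same. The lowest were for Atp1b2 in cones, 96.9% ± 0.38 in control and 96.3% ± 0.34 in dKO mice (exact p = 0.0556, adjusted 0.643), and in cone bipolar cells, 95.2% ± 0.71 and 93.9% ± 0.87 (exact p = 0.0556, adjusted 0.643). The largest differences in mean were 3.50 percentage points for Atp1b1 in GABAergic amacrine cells (69.8% ± 6.51 and 73.3% ± 3.66, exact p = 0.397) and 3.30 points in RPE (78.7% ± 3.18 and 82.0% ± 2.72, exact p = 0.229). The difference in GABAergic amacrine cells was 0.253 points without S04, the control mouse with the lowest share there, and 2.28 points without S08. That in RPE was 1.47 points without S01, 2.16 without S09 and 5.39 without the 5% of cells with the most UMIs. Nor did the change of any beta gene differ between rods, Müller glia and RPE past 0.05 (9 exact permutation tests, lowest p = 0.254, adjusted p = 0.986). A single one of these 9 tests at its smallest p, 0.00794 or 0.0286, could not pass after adjustment, so equal changes are not shown.

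Genes that work beside the pump were read from 4 lists, and 0 genes of them passed the adjusted threshold in any type. Of 33 pairs tested for other pump-associated genes (other FXYD genes, NKAIN genes and Bsg) 0 had an unadjusted p under 0.05, with a median log2 fold change of 0.026. Of 169 pairs for carriers that use the sodium gradient 10 did, 7 of them higher in dKO (5.92%, beside 2.47% of all gene and cell type pairs). The share over all genes ran from 1.58% to 4.80% between cell types. The median log2 fold change of the carriers was 0.050. Of 43 pairs for potassium handling and 42 for calcium pumps 1 each did, with medians of 0.052 and 0.021.

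Among the carriers the lowest p belonged to Slc24a3, a sodium, calcium and potassium exchanger, in rods, with 52.8 ± 7.44 CPM in control and 71.3 ± 6.80 CPM in dKO mice (0.41 ± 0.10, edgeR adjusted p = 0.9999). Its level was far higher in cone bipolar cells (1545 CPM) and Müller glia (829 CPM). The part of RNA from other cells in the rod values was not tested. Slc38a3, a sodium-coupled glutamine transporter, had 123 ± 11.1 and 168 ± 10.7 CPM in RPE (0.45 ± 0.18, edgeR adjusted p = 0.958). Slc4a4, a sodium bicarbonate cotransporter, had 40.1 ± 12.3 and 27.8 ± 5.73 CPM in ganglion cells (−0.56 ± 0.21, edgeR adjusted p = 0.9996). None of these 3 passed the adjusted threshold.

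In the other lists the lowest were Atp2b3, a calcium pump of the plasma membrane, in RPE (25.3 ± 8.27 and 43.7 ± 10.3 CPM, edgeR adjusted p = 0.944), and Kcnv2, a potassium channel subunit of photoreceptors, in cone bipolar cells (11.2 ± 5.49 and 19.4 ± 10.5 CPM, edgeR adjusted p = 0.99997). Of the pump-associated genes it was Nkain1 in ganglion cells, with 18.9 ± 3.80 CPM in control and 14.6 ± 1.94 CPM in dKO mice (−0.37 ± 0.19, edgeR adjusted p = 0.9996).

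The sequences of the deleted miRNAs are shown because their seeds were searched for in the 3′-UTRs of the members. Mature mouse sequences are from RefSeq (table of build GRCm38.p6), 5′ to 3′, with the seed (bases 2 to 8) in capitals:
miR-204-5p: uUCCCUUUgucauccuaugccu
miR-211-5p: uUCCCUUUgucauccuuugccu
miR-204-3p: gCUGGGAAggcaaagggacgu
miR-211-3p: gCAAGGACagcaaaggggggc
The 5p strands share their seed and differ by A17U (miR-204-5p base first, counted from 1 at the 5′ end), whereas the 3p strands have different seeds.

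Matches to the 7 bases complementary to each seed were searched on the sense strand of the annotated 3′-UTRs (GENCODE M39, GRCm39). The 5p match AAAGGGA was present in 4463 of 20956 genes with a 3′-UTR (21.3%), TTCCCAG for miR-204-3p in 5973 (28.5%) and GTCCTTG for miR-211-3p in 3544 (16.9%). Atp1b1, the main beta gene of RPE, and Atp1b3 had no match to any of the seeds in any annotated transcript. Atp1b2 had 4 matches to miR-204-3p and 1 to miR-211-3p, Fxyd7 had 1 to miR-204-3p, and Fxyd6 had the single 5p match, in 1 of 30 transcripts and not the canonical one.

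Windows of the matches followed by an A, the stronger kind, and of the 5p match are printed 5′ to 3′ with the match in capitals, because Atp1b2 is the member with the most matches and Fxyd6 the member with a 5p match:
Atp1b2, miR-204-3p match (chr11:69491193-69491199, minus strand): cccactggccTTCCCAGaatatctttc
Atp1b2, miR-211-3p match (chr11:69492018-69492024, minus strand): cttctggaatGTCCTTGaccctgcctg
Fxyd6, 5p match (chr9:45306195-45306201, plus strand): atttataggcAAAGGGAttatgctgaa
A match is a run of letters and not a shown site. Atp1b2 in RPE, with 5 matches, differed by −0.061 (interval −0.47 to 0.35), and Fxyd6 was below the filter there, with 13 UMIs in 7 mice.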

How the data were processed

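Single-cell RNA-sequencing (Parse Evercode WT v2, 8 sublibraries) of papain-dissociated retinas was analysed. Per the methods of the authors, reads were mapped to GRCm39 with split-pipe, a minimum of genes per cell and of cells per gene was applied, and R 4.2.2 and Seurat 4.3.0 were used afterwards. The deposited values are raw UMI counts that precede normalization, and in 31089 of 31089 cells they add up to the listed total. No handling of doublets is stated, and none were removed here. The column named for clusters holds the barcoding well, so cells were typed anew.

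Each cell was scored for 16 types by 5 to 8 marker genes each, as counts per 10000 scaled to the most strongly expressing cells. It was assigned to the best type if at least 3 of its markers were detected and no other type, amacrine types aside, scored over 0.5 of the best. The stricter alternative asked for 4 markers. Counts were summed per mouse and type, and mice with at least 10 cells of the type were used. Groups were compared with edgeR 4.0.16 (R 4.3.3; TMM, filterByExpr, quasi-likelihood test, Benjamini-Hochberg over all genes, threshold 0.05), and each SE is the size of the log2 fold change divided by the root of its F value. Shares were tested by two-sided exact permutation over mice, with p adjusted together (Python 3.11.15, scipy 1.17.1). Alternatives were DESeq2 1.42.0, library size scaling, no filter, each mouse left out, S06 and S07 summed, and S04, S05 and S07 left out. Others were the stricter typing, the 5% of cells with the most UMIs in each mouse left out, and for levels a total without rod markers. The edgeR and permutation tests were tested on simulated data.

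The members, cell types, lists and tests were chosen with earlier results of these data known. Named genes are the members, at most 3 genes of the lowest p of each of 4 lists, and the 3 most similar genes per member with at least 50 CPM in a type. Genes were placed with GENCODE M39 on GRCm39, a later annotation than that of the authors. The catalytic subunit genes and some other genes are not reported here, and the miRNAs themselves were not analysed here. Nothing in the labels says whether the mice of a group were littermates.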

Additional observations from a re-analysis of the deposited data

Results flagged for a closer look

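In 103 groups of 4 or 5 mice, values of the members and shares were examined for a mouse far from its group, and 4 were found, all in S04, a control mouse with few cells outside the rods (chance alone would mark about 5% of groups). Atp1b1 in GABAergic amacrine cells was 264 CPM in S04 (23 cells, 140 UMIs) against 456 to 491 CPM in the other control mice. Its share of beta UMIs there was 60.1% against 72.6% to 73.4%, and that of Atp1b2 was 30.9% against 18.4% to 19.8%. The share of Atp1b3 in rod bipolar cells was 3.70% in S04 against 0.889% to 1.07%, on 2 UMIs from 19 cells. The sum of 3 rod marker genes that the typing did not use stood at 738 to 828 CPM in the GABAergic amacrine cells of S04, S05 and S07 and at 99.7 to 193 CPM in those of the other mice.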

How the results depend on the processing

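No paired analysis was made, because the sample names run through from S01 to S09 and link no control mouse to a dKO mouse. No member passed 0.05 in any type under any alternative (482 values, lowest adjusted p = 0.806), nor did a share (351 values, lowest adjusted p = 0.402). For shares this decides little. Without S04, S05 and S07 the test set 3 mice against 3 and could not reach 0.05 even before adjustment. In the other settings a single share at its smallest p could not pass after adjustment. Of the 482 fold changes 44 had the other sign, none from a main value over 0.33 in size; causes were not tested. Depth limits Fxyd6 and Fxyd7 outside Müller glia, fibroblast-like and ganglion cells, RPE values from S07 (11 cells) and cell types with few cells per mouse.

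With DESeq2, genes called numbered 1 in rods, 4 in ganglion cells, 2 in RPE. With S06 and S07 summed, log2 fold changes were −0.030 for Atp1b2 in GABAergic amacrine cells. With S06 and S07 summed, dKO minus control, in percentage points of beta UMIs, was −0.586 for Atp1b1 in rod bipolar cells, −1.11 for Atp1b2 in glycinergic amacrine cells. With library sizes alone, log2 fold changes were 0.020 for Atp1b2 in rods. With no filter, genes called numbered 1 in rods, 53 in cones, 43 in rod bipolar cells, 48 in cone bipolar cells, 242 in ganglion cells, 84 in RPE. With no filter, log2 fold changes were −0.0081 for Fxyd6 in Müller glia. With the stricter typing, genes called numbered 0 in RPE. With the stricter typing, log2 fold changes were −0.00019 for Fxyd6 in Müller glia. With the stricter typing, mean CPM was 16.7 for Atp1b3 in cone bipolar cells. With the stricter typing, mean percent of beta UMIs was 93.2 for Atp1b2 in cone bipolar cells, 5.00 for Atp1b3 in cone bipolar cells, 13.8 for Atp1b1 in pericytes. Without S04, S05 and S07, genes called numbered 1 in cones, 1 in ganglion cells. Without S04, S05 and S07, log2 fold changes were −0.16 for Atp1b1 in cones, −0.10 for Atp1b2 in GABAergic amacrine cells, −0.15 for Atp1b2 in ganglion cells, −0.048 for Fxyd6 in Müller glia. Without S04, S05 and S07, dKO minus control, in percentage points of beta UMIs, was −0.722 for Atp1b2 in rods, −0.0425 for Atp1b1 in cones, −0.323 for Atp1b1 in rod bipolar cells, 0.0697 for Atp1b3 in rod bipolar cells, 1.97 for Atp1b1 in glycinergic amacrine cells, −3.63 for Atp1b2 in glycinergic amacrine cells, 0.235 for Atp1b1 in ganglion cells, −0.501 for Atp1b2 in ganglion cells, 0.267 for Atp1b3 in ganglion cells. Without the 5% of cells with the most UMIs, genes called numbered 0 in RPE. Without the 5% of cells with the most UMIs, log2 fold changes were −0.031 for Atp1b2 in GABAergic amacrine cells, −0.056 for Atp1b3 in ganglion cells, −0.041 for Fxyd7 in ganglion cells, 0.25 for Atp1b2 in RPE. Without the 5% of cells with the most UMIs, dKO minus control, in percentage points of beta UMIs, was −0.476 for Atp1b1 in rod bipolar cells, 0.388 for Atp1b1 in ganglion cells. Without the 5% of cells with the most UMIs, mean CPM was 425 for Atp1b1 in ganglion cells, 51.6 for Atp1b3 in ganglion cells, 0 for Fxyd6 in horizontal cells, 0 for Fxyd7 in endothelial cells. Without the 5% of cells with the most UMIs, mean percent of beta UMIs was 81.3 for Atp1b1 in ganglion cells, 8.43 for Atp1b2 in ganglion cells, 10.3 for Atp1b3 in ganglion cells, 7.25 for Atp1b3 in horizontal cells. With each mouse left out in turn, genes called ranged from 0 to 1 in rods, 0 to 1 in cones, 0 to 31 in RPE. The 1 in rods came without S01 and in cones without S01 or S05, and RPE gave 31 without S02, 4 without S06, 3 without S09, 2 without S01 or S08 and 0 without S03. With each mouse left out in turn, log2 fold changes ranged from −0.33 to 0.081 for Atp1b1 in rods, −0.22 to 0.17 for Atp1b2 in rods, −0.065 to 0.11 for Atp1b3 in rods, −0.0071 to 0.42 for Atp1b1 in cones, −0.14 to 0.0071 for Atp1b2 in rod bipolar cells, −0.0064 to 0.43 for Atp1b1 in cone bipolar cells, −0.11 to 0.00080 for Atp1b2 in cone bipolar cells, −0.0076 to 0.22 for Atp1b1 in GABAergic amacrine cells, −0.045 to 0.10 for Atp1b2 in GABAergic amacrine cells, −0.0072 to 0.21 for Atp1b3 in glycinergic amacrine cells, −0.069 to 0.16 for Atp1b3 in ganglion cells, −0.0078 to 0.22 for Fxyd7 in ganglion cells, −0.13 to 0.29 for Atp1b1 in Müller glia, −0.12 to 0.058 for Atp1b2 in Müller glia, −0.15 to 0.17 for Fxyd6 in Müller glia, −0.20 to 0.065 for Atp1b2 in RPE, −0.047 to 0.21 for Atp1b3 in RPE. With each mouse left out in turn, dKO minus control, in percentage points of beta UMIs, ranged from −1.01 to 0.293 for Atp1b1 in rods, −1.08 to 1.11 for Atp1b2 in rods, −0.17 to 0.785 for Atp1b3 in rods, −0.705 to 0.913 for Atp1b1 in rod bipolar cells, −0.186 to 1.58 for Atp1b2 in rod bipolar cells, −2.93 to 1.24 for Atp1b2 in GABAergic amacrine cells, −4.07 to 1.51 for Atp1b1 in glycinergic amacrine cells, −2.19 to 2.88 for Atp1b2 in glycinergic amacrine cells, −1.13 to 0.283 for Atp1b1 in ganglion cells, −0.702 to 0.071 for Atp1b3 in ganglion cells.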

Other observations

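The lists fixed beside the members gave further patterns over cell types, as a description. Fxyd1, which encodes phospholemman, was highest in Müller glia (44.8 CPM) and pericytes (43.9 CPM), and Fxyd5 in endothelial cells (97.8 CPM) and microglia (33.6 CPM), whereas Fxyd2, Fxyd3 and Fxyd4 did not exceed 3.28 CPM in any type. Nkain3, of a family that binds beta subunits, was highest in cone bipolar (406 CPM) and ganglion cells (259.5 CPM), and Nkain2 in ganglion (240.0 CPM) and GABAergic amacrine cells (136 CPM). Bsg, the membrane glycoprotein basigin, led in endothelial cells (1204 CPM) and RPE (841 CPM).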
